A study of Homo sapiens with 16 samples.

Results

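Expression of 10 target genes of the hypoxia-inducible factors (HIFs) that lie outside glycolysis was examined in A498 cells, an established human clear cell renal cell carcinoma line. The genes were chosen by name and sorted by role. VEGFA, ADM, ANGPTL4, TGFA and EFNA1 encode secreted or cell surface ligands, LOX and P4HA1 encode enzymes of the collagen matrix, and NDRG1, BNIP3 and TMEM45A encode stress and membrane proteins. Each value came from the brightest probe set that carries exactly 1 gene symbol, and the 10 genes are 10 of the 22411 genes measured in this way. All cells carried short hairpin RNAs against DGAT1 and DGAT2, the enzymes of the last step of triglyceride synthesis, under a doxycycline-inducible promoter. Cells received doxycycline or vehicle for 5 days. Hypoxia (0.5% O2) or normoxia followed for 2 days, in medium low in serum, before their RNA was taken. The 4 groups, with 4 arrays each, were doxycycline hypoxia, doxycycline normoxia, vehicle hypoxia and vehicle normoxia. No array held doxycycline-treated cells without the hairpins, so the drug and the hairpins cannot be told apart, and all cells belong to a single line. The labels number the arrays of a group as biological replicates and do not say how the cultures were kept apart, so p-values measure the spread between these arrays, which may be technical.

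HIFs are transcription factors made of an oxygen-regulated alpha subunit and a constant beta subunit. In oxygen the alpha subunit is hydroxylated, bound by the von Hippel-Lindau protein VHL and degraded, and in hypoxia it accumulates and binds hypoxia response elements near its targets. A498 cells lack functional VHL, as most clear cell renal carcinomas do, so that HIF2α is stable in these cells at normal oxygen too. The targets followed here drive blood vessel growth (VEGFA, ADM, ANGPTL4), cross-link or hydroxylate collagen (LOX, P4HA1) and remove mitochondria (BNIP3).

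The core of a hypoxia response element was looked for in the RefSeq promoter windows (build GRCh38.p14, 250 bases before to 50 bases after a gene start), as ACGTG or GCGTG on either strand. Windows were found for 8 of the 10 genes, all but VEGFA and NDRG1. In the window of at least 1 start, 7 of these 8 genes held either core and 4 held ACGTG. Of all 35116 windows in the table, 48.4% held either core and 21.4% held ACGTG. LOX had 3 windows and TGFA had 2, which gives these genes more room for a match. The stretches below are those around the cores of ADM and P4HA1, which rose with doxycycline, of LOX, which rose with hypoxia, of ANGPTL4, which had its highest group mean with both, and of BNIP3, which passed in no comparison. Each is written 5′ to 3′ on the strand of the gene, with the cores in capitals (CACGT and CACGC are ACGTG and GCGTG on the opposite strand).
ADM, chr11:10304942-10305001, plus strand: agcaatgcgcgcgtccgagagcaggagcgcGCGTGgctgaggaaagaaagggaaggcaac
ANGPTL4, chr19:8363905-8363964, plus strand: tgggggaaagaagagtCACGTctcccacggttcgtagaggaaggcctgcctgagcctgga
P4HA1, chr10:73096923-73096982, minus strand: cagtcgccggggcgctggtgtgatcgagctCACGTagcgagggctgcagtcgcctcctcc
LOX, chr5:122078290-122078459, minus strand: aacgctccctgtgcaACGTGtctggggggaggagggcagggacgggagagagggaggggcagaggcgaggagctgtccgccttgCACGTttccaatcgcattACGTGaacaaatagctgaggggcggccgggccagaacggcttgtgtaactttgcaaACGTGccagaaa
BNIP3, chr10:131982014-131982083, minus strand: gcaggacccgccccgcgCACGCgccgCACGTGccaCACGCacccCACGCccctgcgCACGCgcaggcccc
The 4 ACGTG cores of LOX lay 185, 116, 98 and 42 bases before its first listed start, and 4 or more cores of either kind were held by 4.4% of all windows. BNIP3 had 6 cores between 143 and 104 bases before its start, a number reached by 0.9% of all windows, with a pair of ACGTG cores that overlap on opposite strands. A single core lay 101 bases before the start of ADM, 234 bases before that of ANGPTL4 and 86 bases before that of P4HA1. EFNA1 held GCGTG 229 bases before its start and TGFA held it 51 bases before its second start, while the window of TMEM45A held neither core. These matches describe letters in a window and were not set against binding data.

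**Figure D1:**
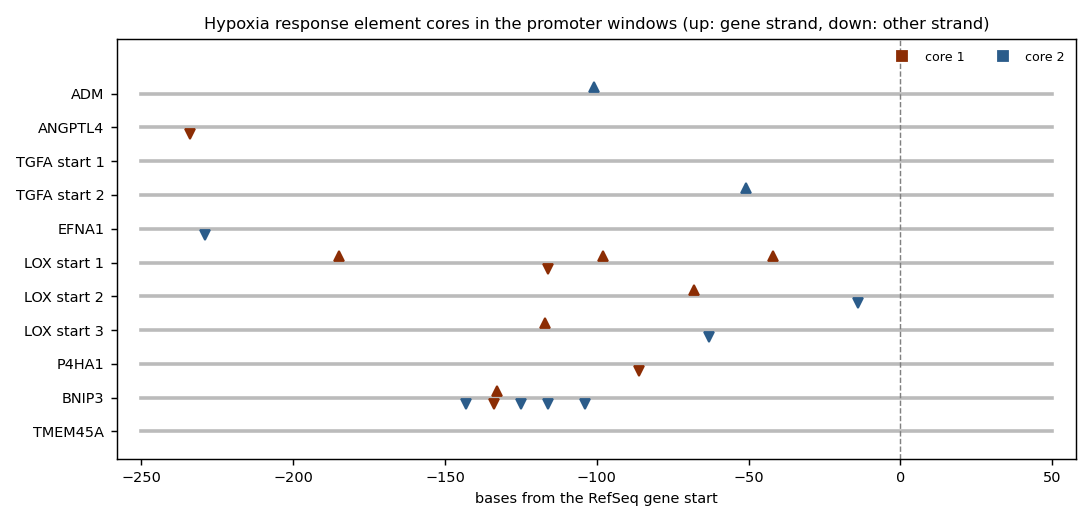
Positions of the hypoxia response element cores in the 11 promoter windows of 8 of the genes, in bases from the RefSeq gene start (dashed line). Core 1 is ACGTG and core 2 is GCGTG, with upward triangles for the strand of the gene and downward triangles for the other. LOX start 1 and BNIP3 hold 4 and 6 cores, and TMEM45A and TGFA start 1 hold none.

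Arrays of the same group differed mainly along 1 direction, a principal component of their values taken relative to the group mean, called the first axis here, which held 63.3% of the variance within groups. Replicate 4 of vehicle hypoxia lay at one end of it (score 45.8) and replicate 4 of doxycycline hypoxia at the other (-31.5), with the remaining 14 arrays between -26.1 and 22.9. DGAT1, a target of the hairpins, averaged 5.18 ± 0.07 with doxycycline and 6.50 ± 0.20 with vehicle in hypoxia, and in normoxia 5.11 ± 0.06 with doxycycline and 6.82 ± 0.14 with vehicle (log2, SD, n = 4 each). DGAT2 averaged 5.12 ± 0.07 and 6.52 ± 0.20 in doxycycline and vehicle hypoxia, and 5.21 ± 0.15 and 7.04 ± 0.12 in doxycycline and vehicle normoxia. The 8 genes listed as a check of the renal carcinoma line were PAX8, PAX2, CDH6, KRT8, KRT18, VIM, NNMT and EPAS1, which are not all particular to renal epithelium. They lay between 5.71 (PAX2) and 15.37 (VIM) on all arrays and were not constant. Averaged over oxygen levels, doxycycline had CDH6 and EPAS1 called higher and KRT8, KRT18 and VIM lower, and averaged over treatments, hypoxia had PAX8 and NNMT called higher and CDH6, KRT8 and KRT18 lower. Their summed log2 values ran from 87.3 to 88.1 in doxycycline hypoxia, 88.8 to 89.2 in doxycycline normoxia, 86.6 to 88.8 in vehicle hypoxia and 87.6 to 88.7 in vehicle normoxia, and their part in the results was not tested. The 6 measured markers of leukocytes, endothelium and hepatocytes were between 2.80 and 4.32 on all arrays, and none of the 6 passed in any comparison. Their summed log2 values ran from 20.9 to 21.6 in doxycycline hypoxia, 21.1 to 21.7 in doxycycline normoxia, 20.7 to 21.8 in vehicle hypoxia and 21.3 to 22.2 in vehicle normoxia.

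Averaged over both oxygen levels (8 arrays against 8), doxycycline raised ADM, ANGPTL4, P4HA1, NDRG1 and TMEM45A and EFNA1 was called lower, at a level within that of the markers of other cell types. Averaged over both treatments, hypoxia raised VEGFA, ADM, LOX and NDRG1 and lowered 0. ADM and NDRG1 were thus called higher with both conditions. A gene was called where its adjusted p (limma, Benjamini-Hochberg over all 22411 genes) was below 0.05. Of all genes, 7.92% were called higher and 8.85% lower with doxycycline, and 5.01% higher and 9.86% lower in hypoxia. These shares include dim genes. At least 66.6% of all genes lay at or below the mean level of each of the 10 genes but EFNA1 (27.8%). With dim genes left out, 1674 of 11507 genes were called higher and 1756 lower with doxycycline. In hypoxia 1449 were called higher and 2249 lower, so each called share was larger among the brighter genes. The median log2 difference over the 10 genes was 0.21 for doxycycline, against -0.01 over all genes, and 0.23 for hypoxia, against -0.03 over all genes. With each array centred on its median the split over all genes moved to 2443 higher and 1476 lower for doxycycline, against 1776 and 1983 without centring, and to 1271 higher and 1520 lower for hypoxia, against 1122 and 2209.

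**Figure D2:**
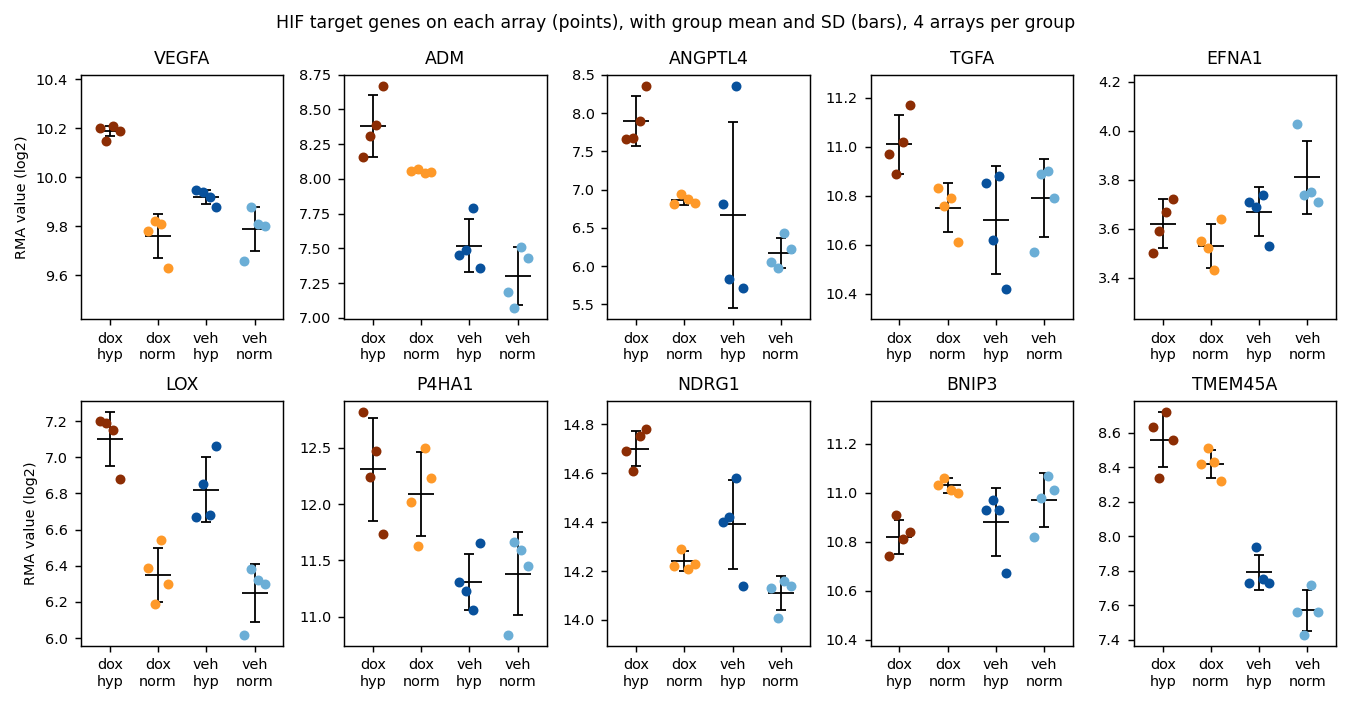
RMA values (log2) of the 10 genes on each of the 16 arrays. Points are arrays, ticks with bars are the group mean and SD of 4 arrays, and each panel has its own scale. ADM and TMEM45A are higher on all 8 doxycycline arrays than on all 8 vehicle arrays, and LOX is higher on all 8 hypoxia arrays than on all 8 normoxia arrays.

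VEGFA, the main growth factor of endothelial cells, was highest where both conditions were combined. It read 10.20, 10.15, 10.21 and 10.19 in doxycycline hypoxia, 9.78, 9.82, 9.81 and 9.63 in doxycycline normoxia, 9.95, 9.94, 9.92 and 9.88 in vehicle hypoxia and 9.66, 9.88, 9.81 and 9.80 in vehicle normoxia (replicates 1 to 4, log2). The doxycycline hypoxia arrays lay above all others, and those of doxycycline normoxia lay below those of vehicle hypoxia. Vehicle normoxia overlapped doxycycline normoxia and reached the lowest value of vehicle hypoxia. Hypoxia raised VEGFA by 0.43 ± 0.07 on the log2 scale with doxycycline (SE, 1.35-fold, adjusted p = 0.00244), and the difference with vehicle was 0.13 ± 0.07 (adjusted p = 0.222). Doxycycline raised it by 0.27 ± 0.07 in hypoxia (1.20-fold, adjusted p = 0.0319), and in normoxia the difference was -0.03 ± 0.07 (adjusted p = 0.826). The change of the doxycycline effect between oxygen levels was 0.29 ± 0.09 (adjusted p = 0.956). The call for doxycycline in hypoxia was lost, with adjusted p between 0.0512 and 0.0976, without vehicle normoxia 4, vehicle hypoxia 1 or 2, doxycycline normoxia 1 or any 1 of the doxycycline hypoxia arrays. It was also lost with the replicate block (adjusted p = 0.0829), arrays centred on medians (adjusted p = 0.0615) and the arrays compared alone (adjusted p = 0.172).

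ADM encodes adrenomedullin, a peptide that widens blood vessels. Its values were 8.16, 8.31, 8.39 and 8.67 in doxycycline hypoxia, 8.06, 8.07, 8.04 and 8.05 in doxycycline normoxia, 7.45, 7.49, 7.79 and 7.36 in vehicle hypoxia and 7.19, 7.07, 7.51 and 7.43 in vehicle normoxia. All doxycycline arrays lay above all vehicle arrays, a pattern without overlap that 1.77% of all genes showed in this direction. Doxycycline raised ADM by 0.86 ± 0.12 in hypoxia (1.82-fold, adjusted p = 0.000617) and by 0.75 ± 0.12 in normoxia (1.69-fold, adjusted p = 0.00118). The doxycycline call in hypoxia was lost with the methods' t-test (adjusted p = 0.0687). The hypoxia effect averaged over treatments was smaller, 0.28 ± 0.09 (1.21-fold, adjusted p = 0.0406). That averaged hypoxia call was lost, with adjusted p between 0.0523 and 0.0789, without any 1 of 12 arrays, namely vehicle normoxia 1 or 2, vehicle hypoxia 1, 2 or 3, any doxycycline normoxia array, and doxycycline hypoxia 2, 3 or 4. A further quantile normalization lost this call too (adjusted p = 0.08).

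ANGPTL4, a secreted inhibitor of lipoprotein lipase, had the widest spread of the 10 genes within a group. It read 7.66, 7.68, 7.90 and 8.36 in doxycycline hypoxia, 6.81, 6.94, 6.88 and 6.82 in doxycycline normoxia, 6.81, 5.83, 8.35 and 5.72 in vehicle hypoxia and 6.06, 5.97, 6.43 and 6.22 in vehicle normoxia. In vehicle hypoxia, replicate 3 stood with the doxycycline hypoxia arrays and replicates 2 and 4 stood below all vehicle normoxia arrays. Doxycycline raised ANGPTL4 by 0.96 ± 0.29 averaged over oxygen levels (1.94-fold, adjusted p = 0.0332), while the differences of 1.23 ± 0.41 in hypoxia (adjusted p = 0.112) and 0.69 ± 0.41 in normoxia (adjusted p = 0.315) did not pass. In normoxia the 4 doxycycline arrays nevertheless lay above the 4 vehicle arrays, the smallest p that the exact permutation test of 4 against 4 allows (two-sided p = 0.0286), and the difference passed in the fit of the arrays compared alone (adjusted p = 0.00282), with the methods' t-test (adjusted p = 0.0177) and, at the threshold, without vehicle hypoxia 3 (adjusted p = 0.05 after rounding). Without vehicle hypoxia 3 the doxycycline difference in hypoxia was 1.78 (adjusted p = 0.000371), the hypoxia difference with doxycycline was 1.04 (adjusted p = 0.012, against 0.204 with all arrays) and the hypoxia effect averaged over treatments was 0.49 (adjusted p = 0.0432, against 0.77 and 0.0868 with all arrays). The averaged doxycycline call was lost, with adjusted p between 0.0517 and 0.0704, without any 1 of 11 arrays, all but vehicle normoxia 3, vehicle hypoxia 3 and 4, and doxycycline hypoxia 1 and 2. That averaged hypoxia effect also passed without vehicle hypoxia 2 (0.91, adjusted p = 0.041) or vehicle hypoxia 4 (0.93, adjusted p = 0.0315).

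TGFA, a ligand of the epidermal growth factor receptor, passed in no comparison. It read 10.97, 10.89, 11.02 and 11.17 in doxycycline hypoxia, 10.83, 10.76, 10.79 and 10.61 in doxycycline normoxia, 10.85, 10.62, 10.88 and 10.42 in vehicle hypoxia and 10.57, 10.89, 10.90 and 10.79 in vehicle normoxia. The doxycycline hypoxia arrays lay above those of doxycycline normoxia and vehicle hypoxia and reached into the range of vehicle normoxia. Doxycycline differed from vehicle by 0.32 ± 0.11 in hypoxia (adjusted p = 0.129) and by -0.04 ± 0.11 in normoxia (adjusted p = 0.858). The difference in hypoxia passed after a further quantile normalization (0.40, adjusted p = 0.0316).

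EFNA1 encodes ephrin-A1, a membrane-bound ligand of EPHA receptors, and was the single gene of the 10 called lower in any comparison of doxycycline with vehicle. Its values were 3.50, 3.59, 3.67 and 3.72 in doxycycline hypoxia, 3.55, 3.52, 3.43 and 3.64 in doxycycline normoxia, 3.71, 3.69, 3.74 and 3.53 in vehicle hypoxia and 4.03, 3.74, 3.75 and 3.71 in vehicle normoxia. All doxycycline normoxia arrays lay below all vehicle normoxia arrays, and the groups in hypoxia overlapped. The EFNA1 values lay within the range of the markers of other cell types on these arrays (2.80 to 4.32), so a signal above background was not shown and no fold is given. The fitted difference was -0.27 ± 0.07 in normoxia (adjusted p = 0.0318) and -0.05 ± 0.07 in hypoxia (adjusted p = 0.819). The normoxia call was lost without vehicle normoxia 1 (-0.20, adjusted p = 0.0878) or without doxycycline normoxia 1, 2 or 3 (adjusted p between 0.0635 and 0.102), and the averaged call of -0.16 ± 0.05 (adjusted p = 0.0478) was lost without any 1 array that is replicate 1, 2 or 3 of its group (adjusted p between 0.0526 and 0.0972). With the replicate block both calls were lost (adjusted p = 0.0691 in normoxia and 0.0882 averaged). The normoxia call was also lost with the arrays compared alone (adjusted p = 0.0529) and the methods' t-test (adjusted p = 0.112), and the averaged call with no intensity trend (adjusted p = 0.0549).

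LOX encodes lysyl oxidase, which cross-links collagen and elastin, and showed the clearest hypoxia effect of the set. It read 7.20, 7.19, 7.15 and 6.88 in doxycycline hypoxia, 6.39, 6.19, 6.54 and 6.30 in doxycycline normoxia, 6.67, 6.85, 6.68 and 7.06 in vehicle hypoxia and 6.02, 6.38, 6.32 and 6.30 in vehicle normoxia. All 8 hypoxia arrays lay above all 8 normoxia arrays, as did those of 0.500% of all genes. Hypoxia raised LOX by 0.75 ± 0.11 with doxycycline (1.68-fold, adjusted p = 0.0019) and by 0.56 ± 0.11 with vehicle (1.48-fold, adjusted p = 0.00751). Doxycycline gave a difference of 0.19 ± 0.08 averaged over oxygen levels (adjusted p = 0.106), which passed without vehicle hypoxia 4 (0.23, adjusted p = 0.0313) or doxycycline hypoxia 4 (0.23, adjusted p = 0.0488), the arrays at both ends of the first axis. In the fit of the arrays compared alone, the call with vehicle was lost (0.56, adjusted p = 0.066), as it was with the methods' t-test (adjusted p = 0.129).

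P4HA1, the catalytic subunit of the collagen prolyl 4-hydroxylase, rose with doxycycline and did not pass for hypoxia. Its values were 12.82, 12.24, 12.47 and 11.73 in doxycycline hypoxia, 12.02, 11.63, 12.50 and 12.23 in doxycycline normoxia, 11.31, 11.23, 11.06 and 11.65 in vehicle hypoxia and 10.84, 11.66, 11.59 and 11.45 in vehicle normoxia. In hypoxia the doxycycline arrays lay above the vehicle arrays, and in normoxia the highest vehicle array passed the lowest doxycycline array. Averaged over oxygen levels, doxycycline raised P4HA1 by 0.85 ± 0.17 (1.81-fold, adjusted p = 0.00278), and the averaged hypoxia difference was 0.07 ± 0.17 (95% interval -0.29 to 0.43, adjusted p = 0.802). The doxycycline difference was 1.00 ± 0.24 in hypoxia (adjusted p = 0.025) and 0.71 ± 0.24 in normoxia (adjusted p = 0.0772). The call in hypoxia was lost without vehicle hypoxia 1, 2 or 3 or doxycycline hypoxia 1, 2 or 3 (adjusted p between 0.0517 and 0.0814), and the difference in normoxia passed without doxycycline normoxia 2 (0.86, adjusted p = 0.0474) or doxycycline hypoxia 4 (0.71, adjusted p = 0.0489). The call in hypoxia was also lost with the replicate block (adjusted p = 0.0627), the arrays compared alone (adjusted p = 0.0872) and the methods' t-test (adjusted p = 0.185).

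P4HA1, LOX, ADM, ANGPTL4, NDRG1 and EFNA1 moved with the first axis between arrays of a group, in either direction. The share of all genes that did so was not counted. Since the axis held 63.3% of the variance within groups, this is not shown to be particular to these genes. P4HA1 had its highest value on the array with the highest axis score and its lowest on that with the lowest score in all 4 groups. In vehicle normoxia, for example, it ran from 10.84 on replicate 1 (score -21.4) to 11.66 on replicate 2 (score 17.3). LOX had its highest value on the array with the highest score in all 4 groups too, and its lowest on the array with the lowest score in 3. ADM ran the other way, with its lowest value on the array with the highest score in all 4 groups and its highest value on the array with the lowest score in 3, and ANGPTL4, NDRG1 and EFNA1 did so in 3 and 3 groups. VEGFA, TGFA, BNIP3 and TMEM45A had such a match in at most 2 groups. With the axis score as a covariate, a setting chosen after seeing the data, the P4HA1 difference in normoxia was 0.71 with an adjusted p of 0.000989. The axis was taken from these same arrays relative to their group means. Such a fit leaves the difference as it was and narrows the spread of a gene that follows the axis. The smaller p is therefore no support for the difference. Over all genes this fit called 5797 in that comparison, against 2035 as reported. What sets the axis, and its part in the calls, was not tested.

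**Figure D3:**
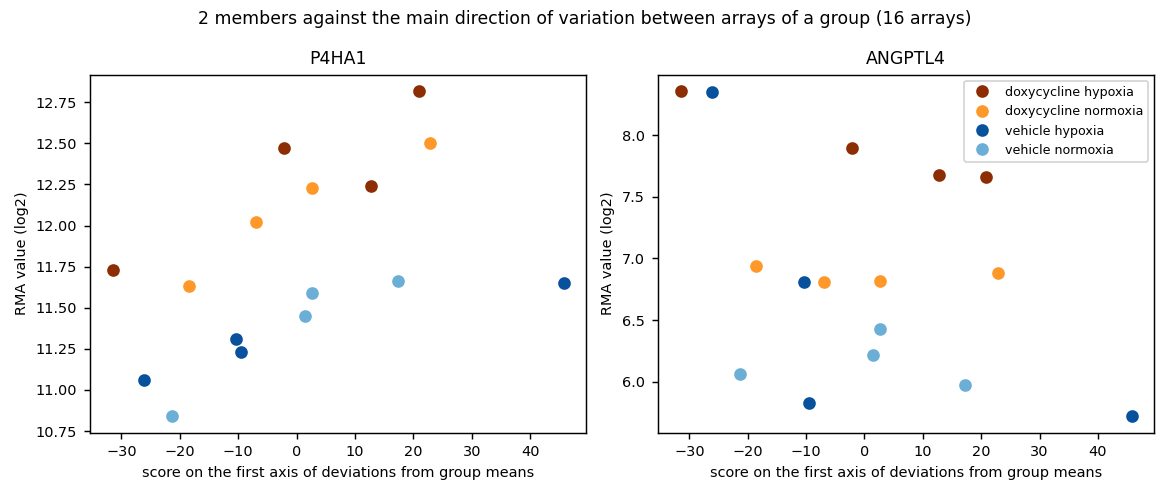
RMA values (log2) of P4HA1 and ANGPTL4 on 16 arrays against the score of each array on the first axis within groups (no unit). Within each of the 4 groups P4HA1 is highest at the highest score and lowest at the lowest, and the vehicle hypoxia array with ANGPTL4 at 8.35 has a score of -26.1.

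NDRG1, a gene induced by many kinds of cell stress, was raised by each condition. It read 14.69, 14.61, 14.75 and 14.78 in doxycycline hypoxia, 14.22, 14.29, 14.21 and 14.23 in doxycycline normoxia, 14.40, 14.42, 14.58 and 14.14 in vehicle hypoxia and 14.13, 14.01, 14.16 and 14.14 in vehicle normoxia. The doxycycline hypoxia arrays lay above all others, and vehicle hypoxia 4 stood with the vehicle normoxia arrays. Hypoxia raised NDRG1 by 0.47 ± 0.08 with doxycycline (1.38-fold, adjusted p = 0.00387) and by 0.28 ± 0.08 with vehicle (1.21-fold, adjusted p = 0.043), and doxycycline raised it by 0.32 ± 0.08 in hypoxia (1.25-fold, adjusted p = 0.0281), with a difference of 0.13 ± 0.08 in normoxia (adjusted p = 0.318). The hypoxia call with vehicle was lost without any 1 of 14 arrays (adjusted p between 0.0517 and 0.0941), all but vehicle hypoxia 4 and doxycycline hypoxia 4. The doxycycline call in hypoxia was lost without vehicle hypoxia 1 or 2 or doxycycline hypoxia 1, 3 or 4 (adjusted p between 0.0546 and 0.0909). With the replicate block both calls were lost (adjusted p = 0.0857 for hypoxia with vehicle and 0.061 for doxycycline in hypoxia). Both were also lost with the arrays compared alone (adjusted p = 0.2 and 0.197) and the methods' t-test (adjusted p = 0.253 and 0.256).

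BNIP3, a receptor that marks mitochondria for removal, passed in no comparison. It read 10.74, 10.91, 10.81 and 10.84 in doxycycline hypoxia, 11.03, 11.06, 11.01 and 11.00 in doxycycline normoxia, 10.93, 10.97, 10.93 and 10.67 in vehicle hypoxia and 10.82, 10.98, 11.07 and 11.01 in vehicle normoxia. With doxycycline, all hypoxia arrays lay below all normoxia arrays, a difference of -0.20 ± 0.08 (adjusted p = 0.195). The averaged hypoxia difference of -0.15 ± 0.06 (adjusted p = 0.0895) passed without vehicle normoxia 1 (-0.17, adjusted p = 0.0477) and with the dim-gene filter (adjusted p = 0.0476). It passed too with array weights (adjusted p = 0.00854), where many more genes were called. The averaged doxycycline difference was 0.00 ± 0.06 (95% interval -0.12 to 0.12).

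TMEM45A, which encodes a protein with several membrane spans, gave the smallest adjusted p of the 10 genes for doxycycline. Its values were 8.63, 8.34, 8.72 and 8.56 in doxycycline hypoxia, 8.42, 8.51, 8.43 and 8.32 in doxycycline normoxia, 7.73, 7.94, 7.75 and 7.73 in vehicle hypoxia and 7.56, 7.43, 7.72 and 7.56 in vehicle normoxia. All 8 doxycycline arrays lay above all 8 vehicle arrays, as did those of 1.77% of all genes, and the doxycycline groups overlapped each other. Doxycycline raised TMEM45A by 0.77 ± 0.09 in hypoxia (1.71-fold, adjusted p = 0.000141) and by 0.85 ± 0.09 in normoxia (1.81-fold, adjusted p = 3.66e-05). The hypoxia difference with vehicle was 0.22 ± 0.09, with no overlap of the arrays and an adjusted p of 0.145, and the averaged one was 0.18 ± 0.06 (adjusted p = 0.0706), which passed without doxycycline hypoxia 2 (0.22, adjusted p = 0.0275). The averaged difference also passed with the dim-gene filter (adjusted p = 0.0404) and with arrays centred on medians (adjusted p = 0.0459). It passed too with array weights (adjusted p = 0.0311), where many more genes were called.

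The comparison of the 2 effects asks which condition gave the higher signed log2 difference. It is therefore also positive where hypoxia lowered a gene that doxycycline did not move, and negative where doxycycline lowered a gene more than hypoxia did. The doxycycline effect minus the hypoxia effect equals the doxycycline normoxia mean minus the vehicle hypoxia mean, for the averaged effects too, so that no array stands on both sides. Of the 10 genes, 3 were called higher and 1 lower in this difference, and over all genes 7.76% were called higher and 3.73% lower. Without overlap of the arrays, 3 of the 10 genes were higher and 2 lower, and 10.5% and 4.82% of all genes were. The doxycycline effect exceeded the hypoxia effect by 0.63 ± 0.09 for TMEM45A (adjusted p = 0.00028), by 0.53 ± 0.12 for ADM (adjusted p = 0.00906) and by 0.78 ± 0.24 for P4HA1 (adjusted p = 0.0465). For LOX the hypoxia effect was the larger, with a difference of -0.46 ± 0.11 (adjusted p = 0.0118), a call lost with the methods' t-test (adjusted p = 0.0921). TMEM45A lay between 8.32 and 8.51 in doxycycline normoxia and between 7.73 and 7.94 in vehicle hypoxia, ADM between 8.04 and 8.07 in doxycycline normoxia and between 7.36 and 7.79 in vehicle hypoxia, and LOX between 6.19 and 6.54 in doxycycline normoxia and between 6.67 and 7.06 in vehicle hypoxia. The arrays of these 3 genes did not overlap (exact permutation p = 0.0286 each, two-sided, the smallest possible), whereas doxycycline normoxia 2 at 11.63 fell below vehicle hypoxia 4 at 11.65 for P4HA1 (exact permutation p = 0.0571). The P4HA1 call was lost without any 1 of 11 arrays (adjusted p between 0.0514 and 0.126), all but vehicle normoxia 1, vehicle hypoxia 4, doxycycline normoxia 2, and doxycycline hypoxia 1 and 4. It was also lost with the replicate block (adjusted p = 0.0913), arrays centred on medians (adjusted p = 0.078), the arrays compared alone (adjusted p = 0.0517) and the methods' t-test (adjusted p = 0.119).

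In the other 6 genes the 2 effects were not told apart by the test. The interval of the difference was -0.30 to -0.02 for VEGFA (adjusted p = 0.141), where all doxycycline normoxia arrays lay below all vehicle hypoxia arrays (exact permutation p = 0.0286) and array weights gave -0.20 (adjusted p = 0.00596). It was -0.31 to 0.02 for NDRG1 (adjusted p = 0.262), -0.29 to 0.02 for EFNA1 and -0.18 to 0.29 for TGFA. For BNIP3 it was -0.02 to 0.32, with all doxycycline normoxia arrays above all vehicle hypoxia arrays. The interval was widest for ANGPTL4, from -0.68 to 1.06, and without vehicle hypoxia 3 the ANGPTL4 difference was 0.74 (adjusted p = 0.0448). Without vehicle hypoxia 4 the NDRG1 difference was -0.23 (adjusted p = 0.0206). Array weights also gave calls of -0.17 for NDRG1 (adjusted p = 0.0132) and -0.14 for EFNA1 (adjusted p = 0.0453). With these weights 6504 of all genes were called in this comparison, against 2575 as reported, so passing there is weak support.

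**Figure D4:**
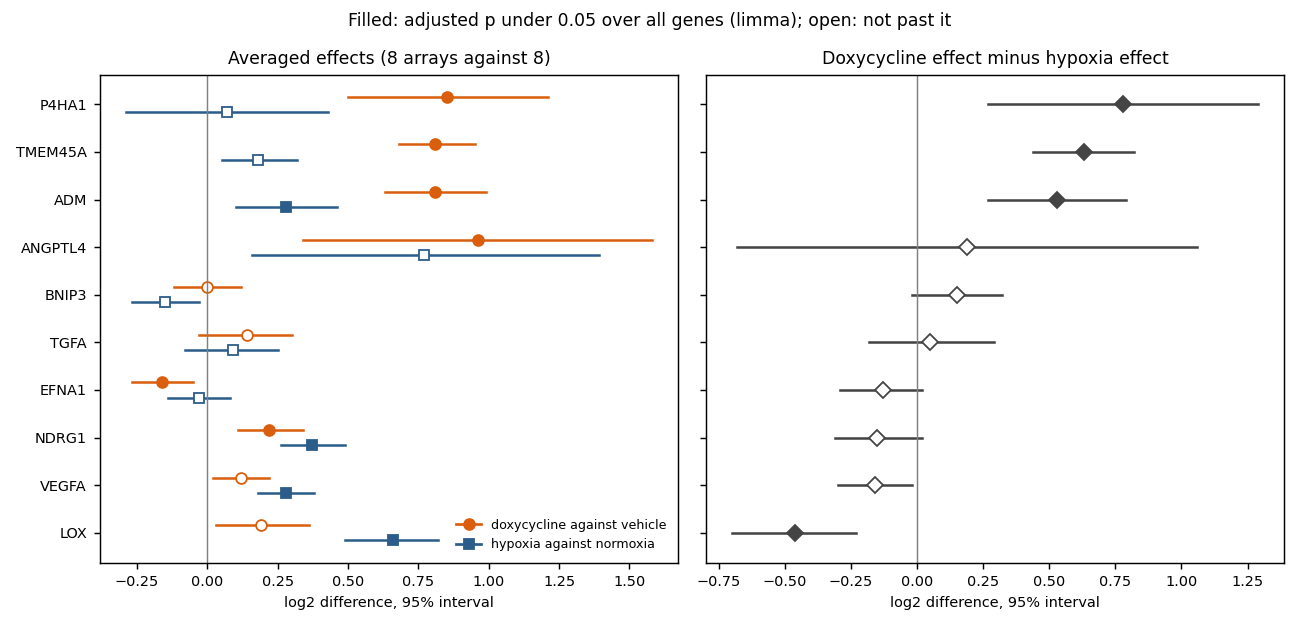
Log2 differences of the 10 genes with 95% intervals from limma, filled where the adjusted p was below 0.05. The left panel shows the averaged doxycycline effect (circles) above the averaged hypoxia effect (squares), and the right panel shows the doxycycline effect minus the hypoxia effect. P4HA1, TMEM45A and ADM stand to the right of 0 in the right panel and LOX to the left.

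At each oxygen level the count of called genes differed. In hypoxia doxycycline raised 5 of the 10 genes (VEGFA, ADM, P4HA1, NDRG1 and TMEM45A) and lowered 0, with 2.67% of all genes called higher and 1.99% lower. In normoxia it raised 2 (ADM and TMEM45A) and 1 was called lower (EFNA1, with no signal above background shown), with 4.43% of all genes called higher and 4.65% lower. Hypoxia raised 3 with doxycycline (VEGFA, LOX and NDRG1), with 1.02% of all genes called higher and 2.97% lower, and 2 with vehicle (LOX and NDRG1), with 2.26% called higher and 4.65% lower. The 5 calls of doxycycline in hypoxia fell to 2 without vehicle hypoxia 1 or 2 or doxycycline hypoxia 1 or 3, and to 3 without doxycycline hypoxia 2 or 4. The 2 calls of hypoxia with vehicle fell to 1 without any 1 of the 14 arrays named for NDRG1, and fits made of the 8 compared arrays alone gave 2 and 0 calls. With 1 array left out, the share of all genes called in either direction ranged from 2.61% to 7.40% for doxycycline in hypoxia, 5.44% to 12.9% for doxycycline in normoxia, 1.90% to 6.22% for hypoxia with doxycycline and 3.53% to 8.31% for hypoxia with vehicle, with the lowest shares without doxycycline hypoxia 3, doxycycline normoxia 3, doxycycline normoxia 2 or doxycycline hypoxia 2, and vehicle normoxia 4, in that order.

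Counted by arrays that did not overlap, whatever the adjusted p, doxycycline in hypoxia had 6 of the 10 genes higher (5.18% of all genes), with TGFA beside the 5 called. Doxycycline in normoxia had 4 higher (9.24% of all genes), with ANGPTL4 and NDRG1 beside the 2 called, and EFNA1 lower (10.7%). Hypoxia with doxycycline had 6 higher (3.76% of all genes), with ADM, ANGPTL4 and TGFA beside the 3 called, and BNIP3 lower (9.15%), and hypoxia with vehicle had LOX and TMEM45A higher (5.58%).

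The differences between oxygen levels were not themselves called. The interaction of doxycycline and hypoxia passed for 0 of the 10 genes and for 0 of 22411 genes, with 1026 genes (4.58%) at an unadjusted limma p under 0.05. VEGFA (0.29 ± 0.09) and TGFA (0.36 ± 0.16) were among these 1026 genes, each with an adjusted p of 0.956. The interaction estimates were positive in 8 of the 10 genes, all but BNIP3 (-0.11 ± 0.11) and TMEM45A (-0.08 ± 0.13). The share of positive estimates over all genes was not counted, so the 8 are not shown to be unusual. The median estimate over all genes was 0.02, and -0.02 with arrays centred on their medians.

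Doxycycline hypoxia against vehicle normoxia, which sets both conditions against neither, called 7 of the 10 genes higher and 0 lower, with 7.67% of all genes called higher and 13.6% lower. The median difference over the 10 genes was 0.72, against -0.04 over all genes. ANGPTL4 had the largest difference, 1.73 ± 0.41 (3.32-fold, adjusted p = 0.00775), followed by ADM with 1.08 ± 0.12 (2.12-fold), TMEM45A with 0.99 ± 0.09 (1.99-fold), P4HA1 with 0.93 ± 0.24 (1.90-fold), LOX with 0.85 ± 0.11 (1.80-fold), NDRG1 with 0.60 ± 0.08 (1.51-fold) and VEGFA with 0.40 ± 0.07 (1.32-fold). In all 7 genes the arrays of both groups did not overlap, with 9.18% of all genes higher in this way. Over all genes the split was 1719 higher and 3053 lower, and 2471 higher and 1869 lower with arrays centred on their medians. This comparison shares its vehicle normoxia arrays with doxycycline in normoxia and with hypoxia with vehicle.

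The order of the 4 group means put doxycycline hypoxia highest in 8 of the genes, all but EFNA1 and BNIP3. The share of all genes with this group highest was not counted, so the 8 are not shown to be unusual. ADM, ANGPTL4 and TMEM45A kept the same order below doxycycline hypoxia, with doxycycline normoxia above vehicle hypoxia and vehicle normoxia lowest. In ANGPTL4 this order rested on single arrays, since without vehicle hypoxia 3 the vehicle hypoxia mean minus the vehicle normoxia mean was -0.05, against 0.51 with all arrays, and without vehicle hypoxia 4 the doxycycline normoxia mean minus the vehicle hypoxia mean was -0.13, against 0.19. For ADM the steps without overlap were those from doxycycline hypoxia down to doxycycline normoxia (0.33) and from there down to vehicle hypoxia (0.53), while for ANGPTL4 the first of these steps alone was free of overlap (1.04). Over all genes, 3.76% had the first step without overlap in this direction and 10.5% the second. LOX and NDRG1 had vehicle hypoxia above doxycycline normoxia, by 0.46 without overlap in LOX and by 0.15 with overlap in NDRG1. Of all genes, 4.82% had vehicle hypoxia above doxycycline normoxia without overlap. In TGFA and EFNA1 no neighbours in the order were free of overlap, nor in P4HA1 and BNIP3.

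Further HIF targets outside glycolysis, a list of 30 genes of which 26 were measured, included genes called with each condition. Doxycycline averaged over oxygen levels raised 12 and lowered 0 (7.92% and 8.85% of all genes), with a median difference of 0.22, and hypoxia averaged over treatments raised 8 and lowered 3 (5.01% and 9.86% of all genes), with a median of 0.16. KDM3A, CXCR4, VLDLR and AK4 were called higher for both. PPP1R3C, a regulator of glycogen storage, rose by 0.76 ± 0.08 with doxycycline (adjusted p = 8.74e-06) and fell by 0.40 ± 0.08 in hypoxia (adjusted p = 0.00223). MXI1, an antagonist of MYC, rose by 0.53 ± 0.06 with doxycycline (adjusted p = 1.47e-05). The chemokine receptor CXCR4 rose by 0.66 ± 0.13 with doxycycline (adjusted p = 0.00317) and by 0.96 ± 0.13 in hypoxia (adjusted p = 0.00025). In hypoxia the lipid droplet protein gene HILPDA rose by 0.50 ± 0.07 (adjusted p = 0.000287), while the growth factor gene PDGFB fell by 0.30 ± 0.06 (adjusted p = 0.00387). EPAS1, which encodes HIF2α, read 10.22 ± 0.13 in doxycycline hypoxia, 10.16 ± 0.07 in doxycycline normoxia, 9.39 ± 0.26 in vehicle hypoxia and 9.63 ± 0.05 in vehicle normoxia (SD, n = 4 each), higher on all 8 doxycycline arrays than on all 8 vehicle arrays (0.68 ± 0.08, adjusted p = 2.9e-05). Of all genes, 1.77% were higher without overlap in this way.

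**Figure D5:**
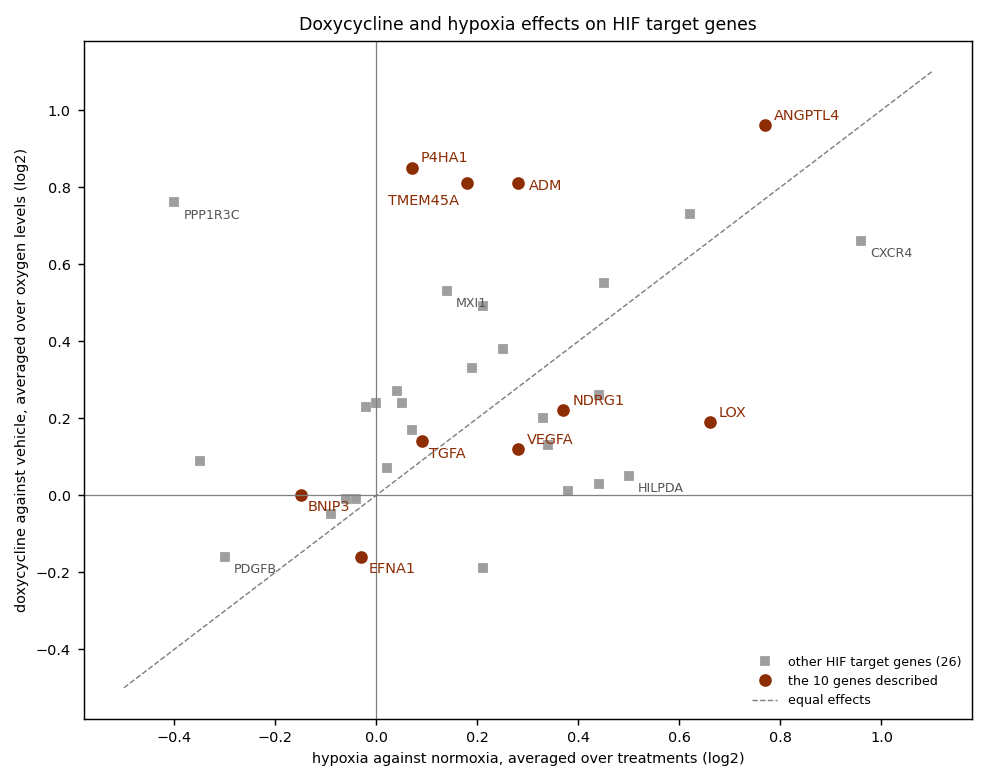
Averaged doxycycline effect against averaged hypoxia effect (both log2) for the 10 genes (circles) and 26 other HIF target genes (squares), with a dashed line where both are equal. P4HA1, TMEM45A and ADM stand above the line near 0.8 on the doxycycline axis, LOX stands below it, and PPP1R3C is positive for doxycycline and negative for hypoxia.

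The receptors and relatives of the encoded proteins formed a list of 33 genes, of which 30 were measured. Doxycycline raised 6 of them and lowered 1 (7.92% and 8.85% of all genes), and hypoxia raised 3 and lowered 0 (5.01% and 9.86% of all genes), each averaged as above, with medians of 0.00 and -0.02. BNIP3L stands in this list and in that of further HIF targets, and is counted among the genes raised by doxycycline in each. NRP2, a co-receptor for VEGF family ligands, rose by 0.37 ± 0.04 with doxycycline (adjusted p = 9.33e-06), and the ligand gene EFNB2 fell by 0.17 ± 0.04 (adjusted p = 0.0127). VEGFC, a growth factor of lymphatic vessels, rose by 0.58 ± 0.06 with doxycycline (adjusted p = 2.46e-05) and by 0.46 ± 0.06 in hypoxia (adjusted p = 0.000272). HBEGF, which like TGFA encodes a ligand of the epidermal growth factor receptor, rose by 0.59 ± 0.09 with doxycycline (adjusted p = 0.000323) and by 0.44 ± 0.09 in hypoxia (adjusted p = 0.00366). The VEGF receptor genes KDR and FLT1 lay between 3.05 and 3.48 on all arrays.

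Across the 16 arrays the mean of the 10 genes, each taken relative to its own mean, lay between 0.30 and 0.42 in doxycycline hypoxia, between -0.01 and 0.08 in doxycycline normoxia, between -0.27 and 0.08 in vehicle hypoxia and between -0.40 and -0.16 in vehicle normoxia. Of the 10 genes, ADM followed this mean most closely (r = 0.93) and EFNA1 least (r = -0.43). The closest pair was ADM and TMEM45A (r = 0.92), VEGFA was closest to LOX (r = 0.86) and ANGPTL4 to NDRG1 (r = 0.85). Among all other genes, HBEGF (r = 0.98), DTNA, AK4 and AOX1 (r = 0.97 each) and NUAK1 (r = 0.96) had the profiles most like the mean. These are Pearson correlations over the same 16 arrays, which share the 4 group means, and are given as a description.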

How the data were processed

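RNA of A498 cells (250 ng per array, biotin-labelled) was hybridised to oligonucleotide arrays. The values are log2 RMA values as deposited by the authors, whose processing notes name RMA and the Transcriptome Analysis Console, with versions and genome build not given in the sources used here. They ran from 1.71 to 19.85, and 590 probe sets lay above 16 on all arrays, more than a 16-bit scanner can give, so a further transformation is possible and would change the size of every fold. Array medians lay between 3.91 and 4.11. Precision is limited by having 4 arrays in a group.

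Of 70523 probe sets, 23781 had 1 gene symbol in the platform annotation, 1543 several and 45199 none. The brightest probe set stood for each of 22411 genes, 528 of which had several. Group means were fitted to all 16 arrays with limma 3.58.1 in R 4.3.3 (lmFit, eBayes with an intensity trend, 12 residual degrees of freedom), two-sided, with Benjamini-Hochberg adjustment over all genes and a threshold of 0.05. Every adjusted p in the text is from limma unless another test is named, and every SE and 95% interval is from the same fit. Groups of 4 were also compared by an exact permutation test over all 70 arrangements of the arrays. The alternatives were the replicate block, leaving out arrays, a filter on dim genes, the mean of probe sets, 2 scalings, no trend, array weights, the arrays compared alone and the methods' t-test, with an axis covariate added after seeing the data.

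The 10 genes, the lists and the markers were chosen with earlier results of these data known. Named beside the 10 genes were DGAT1 and DGAT2, the listed genes with the smallest adjusted p (up to 2 per direction and averaged comparison), and the 5 genes most like the mean profile. EPAS1, KDR, FLT1, KDM3A, VLDLR, BNIP3L, AK4 as a listed target, and the renal markers called were named after their values were seen. Promoter sequences were read with Python 3.11.15 and pandas 2.3.3, and figures drawn with matplotlib 3.10.9.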

Additional observations from a re-analysis of the deposited data

Results flagged for a closer look

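In 3 of the 40 sets of 4 arrays formed by the 10 genes and 4 groups, 1 array stood far from the others of its group by Dixon's criterion, where chance gives about 1 in 20 sets. EFNA1 read 4.03 on replicate 1 of vehicle normoxia, against 3.71 to 3.75 on the other 3 arrays. BNIP3 read 10.67 on replicate 4 of vehicle hypoxia, against 10.93 to 10.97 on the others. TMEM45A read 7.94 on replicate 2 of vehicle hypoxia, against 7.73 to 7.75 on the others.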

How the results depend on the processing

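Of 90 results (10 genes in 9 comparisons), 34 were called, of which 25 were called whichever single array was left out and 21 in every alternative, and of the 56 not called 19 passed in at least 1 alternative. No result turned its direction past the threshold. The number of the 10 genes called for doxycycline in hypoxia was 5 in the fit as reported, 2 with the replicate block, 2 with only the arrays compared, 2 with the methods' t-test and 8 with the axis score as a covariate, and between 2 and 5 without 1 array. For hypoxia with vehicle it was 2 as reported, 1 with the replicate block, 0 with only the arrays compared and 0 with the methods' t-test (4 before adjustment at the threshold of 0.05), and between 1 and 2 without 1 array. For hypoxia with doxycycline it was 3 as reported and 6 with array weights or the axis score, for hypoxia averaged over treatments 4 as reported and 7 with either, and for the doxycycline effect minus the hypoxia effect 4 as reported, 7 with array weights and 2 with the methods' t-test. The axis score was taken from these same arrays, so its smaller p-values follow in part from how it was built. The cause of the other shifts was not tested. The replicate block gave 2 calls for doxycycline in normoxia, 5 for averaged doxycycline, 3 for the difference of both effects, 7 for both conditions together, 3 for hypoxia with doxycycline and 4 for averaged hypoxia, within 1.5 times the reported counts. Same-numbered arrays deviated together (r over 0.1) in 8 of 24 pairs, so the numbers were not taken as a pairing.

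Over all genes, the reported 993 higher and 1042 lower for doxycycline in normoxia were 1450 and 729 with centred arrays and 1359 and 881 after a further quantile normalization. For doxycycline in hypoxia 598 and 447 were 1022 and 320 after quantile normalization and 139 and 59 with the methods' t-test. For hypoxia with vehicle 506 and 1043 were 549 and 581 with centred arrays, 266 and 587 with the replicate block, 31 and 89 with only the arrays compared and 2 and 9 with the methods' t-test. For hypoxia with doxycycline 228 and 665 were 305 and 477 after quantile normalization and 120 and 359 with the replicate block. For averaged doxycycline 1776 and 1983 were 2509 and 1486 after quantile normalization, and for both conditions together 1719 and 3053 were 2417 and 2103. For the difference of both effects 1739 and 836 were 803 and 284 with the methods' t-test, 970 and 392 with only the arrays compared and 1576 and 1242 without vehicle hypoxia replicate 4. Array weights called between 3366 and 8458 genes and the axis covariate between 3476 and 8627 in the 8 comparisons other than the interaction, in each over 1.5 times the reported count, and the axis covariate called 64 genes in the interaction, where 0 were reported. Single arrays also moved these totals by over 1.5 times, and with them the shares of all genes. Doxycycline in normoxia had 2035 calls, 1343 without vehicle normoxia 4 and 1220 without doxycycline normoxia 3. Doxycycline in hypoxia had 1045, 610 without vehicle hypoxia 1, 586 without doxycycline hypoxia 3 and 1659 without vehicle hypoxia 4. Hypoxia with vehicle had 1549, and between 790 and 988 without vehicle normoxia 1, 3 or 4 or vehicle hypoxia 1. Hypoxia with doxycycline had 893, 1395 without vehicle hypoxia 4, and between 426 and 543 without doxycycline normoxia 1, 2 or 4 or doxycycline hypoxia 1, 2 or 3.

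With 4 arrays per group of 1 cell line, intervals were widest for ANGPTL4 and P4HA1. The dim-gene filter left out EFNA1. With this filter the share of genes called was larger than that over all genes in every comparison but the interaction.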
